A study of Mus musculus with 4 samples.

Results

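The genes described here are 10 metalloproteinases and inhibitors of them, out of 12799 genes in a table of poly(A) RNA from mouse osteoclast precursors. They are the tissue inhibitors of metalloproteinases Timp1, Timp2 and Timp3, the membrane-anchored inhibitor Reck, the matrix metalloproteinases Mmp9, Mmp14, Mmp2 and Mmp13, and the cell-surface proteases Adam10 and Adam17. They were chosen by family, and by measured values, since the low Timp3 level of the knockouts was already known from this comparison. Differences between genotypes among the 10 genes are therefore descriptions. Calls from the fit over the whole table are counted once, and nothing is read from them about the members. All 10 genes were in the table, and all 10 passed the filter on low values, which asked for 1 CPM or more in 2 or more of the libraries. CPM is the number of reads of a gene scaled to the size of its library.

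The cells were bone marrow-derived monocytes of 12-week-old female mice, held for 3 days in M-CSF at 30 ng/mL and RANKL at 50 ng/mL, the cytokines that turn such cells into bone-resorbing osteoclasts. Control cells had the genotype Piezo1f/f, with loxP-flanked alleles of the stretch-gated channel Piezo1 and no recombinase (2 libraries). Knockout cells were Csf1r-iCre;Piezo1fl/fl, in which the Csf1r promoter drives Cre in monocytes and their descendants (2 libraries). Because the controls lacked Cre, an effect of the transgene cannot be told apart from that of Piezo1 loss. The labels do not say how many mice stand behind each library, and the spread between libraries may be partly technical.

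Recovered totals ran from 14122118 to 18897927 reads per library. Piezo1 was at 430 and 384 CPM in the controls against 61.0 and 56.2 CPM in the knockouts, 14.4% of the control mean. Of the fixed cell markers, all 10 osteoclast and all 10 macrophage genes were present. The osteoclast list summed to 41044 and 40628 CPM in the controls against 39962 and 48154 CPM in the knockouts, with knockout 2 the highest. Neutrophil markers summed to between 47.1 and 86.9 CPM over the 8 of 10 genes in the table, with Ly6g and Prtn3 not listed. Stromal, fibroblast and osteoblast markers were far from 0: 22 of 24 were in the table, with Thy1 and Bglap not listed, and they summed to 2652 and 3248 CPM in the controls against 2003 and 1740 CPM in the knockouts.

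Metalloproteinases cut their substrates with a zinc ion held in the active site. Matrix metalloproteinases (MMPs) degrade collagens and other matrix proteins, and the ADAM proteases release the outer parts of membrane proteins such as cytokines and receptors. TIMPs bind MMPs and some ADAMs by placing the first cysteine of the mature protein on the zinc. In bone, MMP9 and MMP14 are made by osteoclasts, MMP13 is best known from osteoblasts and hypertrophic chondrocytes, and MMP2 and TIMP3 are typical of mesenchymal cells.

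The coding sequences that build both sides of this contact are shown because they set the proteases and the TIMPs apart. In the 6 proteases an in-frame search of the longest coding transcript (GENCODE M21, build GRCm38) found 1 match each to the zinc site, the pattern His-Glu, any pair of residues, His, any pair, Gly, any pair, His. The capitals mark the codons of the fixed residues, read 5′ to 3′ on the coding strand.
Mmp9: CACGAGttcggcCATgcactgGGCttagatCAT
Mmp14: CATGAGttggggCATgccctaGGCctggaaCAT
Mmp2: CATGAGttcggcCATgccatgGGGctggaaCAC
Mmp13: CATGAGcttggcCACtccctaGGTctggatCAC
Adam10: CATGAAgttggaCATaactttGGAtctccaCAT
Adam17: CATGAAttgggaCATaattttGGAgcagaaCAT

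The sites lie in coding exons at chr2:164951133-164951165 (Mmp9, plus strand), chr14:54437627-54437659 (Mmp14, plus), chr8:92839279-92839311 (Mmp2, plus), chr9:7276573-7276605 (Mmp13, plus) and chr12:21336732-21336764 (Adam17, minus). The Adam10 site is split by an intron, between chr9:70754296 and 70761585 on the plus strand. Adam10 and Adam17 shared 26 of 33 bases, and the pairs of MMPs shared from 22 (Mmp9 and Mmp13) to 27 (Mmp14 and Mmp2). Between the ADAMs and the MMPs, 17 to 22 bases were identical, so the ranges within and between the classes met at 22. The Reck coding sequence held no match.

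In the 3 TIMPs the first cysteine of the inhibitory end is followed, after 1 other residue, by a second one. The first such pair of cysteine codons in each reading frame is in capitals.
Timp1: TGTagcTGTgccccaccccacccacagaca
Timp2: TGCagcTGCtccccggtgcacccgcaacag
Timp3: TGCacaTGCtctcccagccatccccaggat

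These stretches lie in exons at chrX:20871111-20871140 (Timp1, plus strand), chr11:118354983-118355012 (Timp2, minus) and chr10:86300923-86300952 (Timp3, plus). Timp1 and Timp3 shared 16 of 30 bases, and either shared 18 with Timp2.

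Timp3, whose protein stays bound to the extracellular matrix and inhibits ADAM17 and ADAM10 as well as MMPs, was lower in the knockouts. It stood at 88.6 and 97.7 CPM in the controls against 38.8 and 33.4 CPM in the knockouts. Both knockout libraries lay below both controls, at 38.8% of the control mean. The difference was −1.36 on the log2(CPM + 0.5) scale, a scale that understates the change of low genes (SE 0.11). In these bulk samples, fewer cells that make a transcript and less of it per cell cannot be told apart.

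Timp1, a secreted inhibitor that also binds ADAM10, was lower in the same libraries. Its levels were 26.4 and 27.6 CPM in the controls against 14.5 and 10.4 CPM in the knockouts, with no overlap. The knockout mean was 46.1% of the control mean, a log2 difference of −1.10 (SE 0.17). The 95% Poisson intervals of the single libraries, which cover counting error only, lay between 23.9 and 30.4 CPM for the controls and between 9.01 and 16.5 CPM for the knockouts.

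Timp2, which on the cell surface also serves as the adaptor through which MMP14 activates pro-MMP2, did not share this pattern. It was at 318 and 358 CPM in the controls against 327 and 352 CPM in the knockouts. Both knockout values lay between the control values, and the log2 difference was 0.01 (SE 0.10, 95% interval −0.23 to 0.25). Timp4 was not in the table.

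Reck, a glycosylphosphatidylinositol-anchored inhibitor of several MMPs, was near the lower limit of the data. It had 30 and 7 reads in the controls against 17 and 16 reads in the knockouts, or 1.95, 0.49, 1.12 and 0.87 CPM. The 2 controls differed from each other more than either did from a knockout. At this depth the 95% interval of its log2 difference, −1.09 to 0.96, leaves a wide range of changes possible in either direction.

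**Figure D1:**
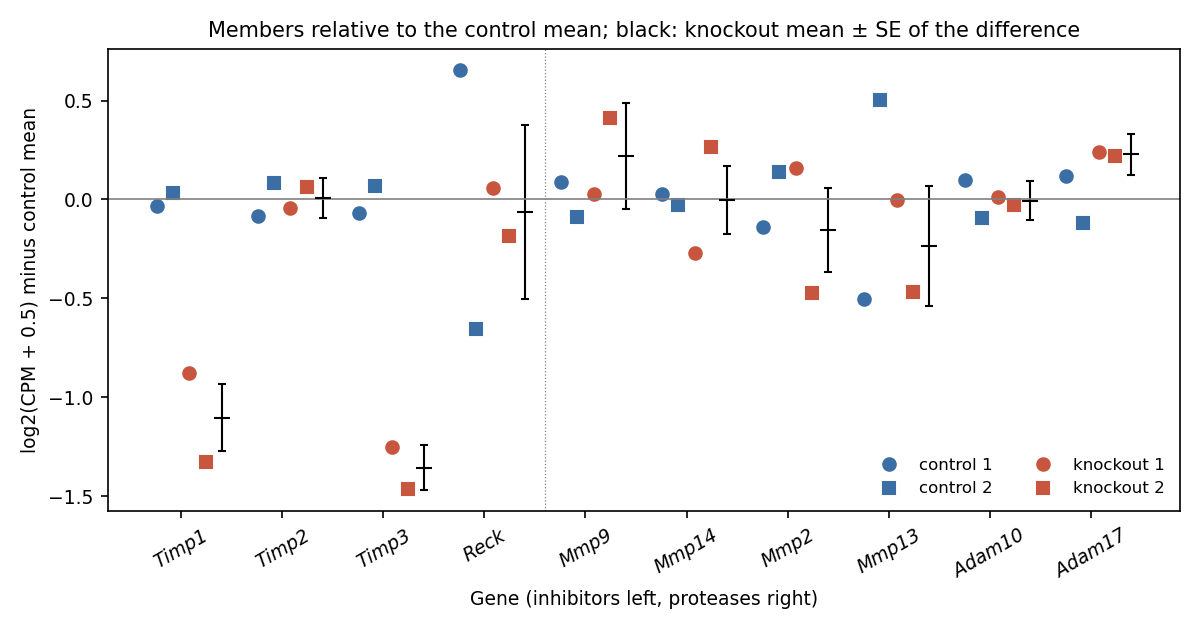
Level of each of the 10 genes in each library as log2(CPM + 0.5) minus the control mean of that gene, with blue for controls, red for knockouts, circles for replicate 1 and squares for replicate 2. Black marks give the knockout mean with the SE of the difference: Timp1 and Timp3 sit at −1.10 and −1.36, and the other genes lie between −0.24 and 0.23.

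Among the proteases, Mmp9, the gelatinase that is among the most abundant osteoclast transcripts, was at 21827 and 19293 CPM in the controls against 20883 and 27323 CPM in the knockouts. The groups overlapped, and knockout 2 was the highest library. The log2 difference was 0.22 (SE 0.27, 95% interval −0.40 to 0.84). Mmp14, the membrane-type collagenase, was at 1102 and 1062 CPM in the controls against 895 and 1299.7 CPM in the knockouts. The knockouts enclosed the controls, with a log2 difference of −0.004 (SE 0.17, 95% interval −0.41 to 0.40).

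Mmp2, the second gelatinase, was at 22.0 and 26.7 CPM in the controls against 27.2 and 17.3 CPM in the knockouts. Mmp13, a fibrillar collagenase, was at 32.6 and 66.0 CPM in the controls against 46.4 and 33.4 CPM in the knockouts. Both genes overlapped between genotypes. Their log2 differences were −0.16 (SE 0.21, 95% interval −0.65 to 0.34) and −0.24 (SE 0.30, 95% interval −0.94 to 0.47). For Mmp13 the highest library was control 2, and without it the difference was 0.27.

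Adam10 and Adam17, the sheddases that cut receptors and membrane-bound cytokines, varied little. Adam10 was at 204 and 179 CPM in the controls against 193 and 188 CPM in the knockouts, with a log2 difference of −0.01 (SE 0.10, 95% interval −0.24 to 0.22). Adam17, known for the release of tumour necrosis factor, was at 130 and 111 CPM in the controls against 142 and 139.7 CPM in the knockouts. Both knockouts were above both controls, with a log2 difference of 0.23 (SE 0.10, 95% interval −0.02 to 0.47).

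limma, fitted to the 11781 tested genes of the table with Benjamini-Hochberg adjustment, called 19 genes at an adjusted p under 0.05, or 0.161%. Of the 10 members it called 1, Timp3. Of all tested genes, 15.4% had both knockouts below both controls and 16.5% had both above, against 2 members (Timp1 and Timp3) and 1 member (Adam17). At an unadjusted p under 0.05 and lower in the knockouts were 3.55% of tested genes and 2 members. Since the members were picked with this comparison known, these counts support nothing further. The median log2 difference was −0.03 over the members and 0.002 over all tested genes. Timp3 was not called when either control 1 or control 2 was left out or when the variance had no intensity trend, and 2 members, Timp1 and Timp3, were called without knockout 1, without knockout 2 or by DESeq2.

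To compare genes with each other, CPM was divided by the merged exon length in kb. Mmp9 led at a mean of 6310 CPM per kb over the 4 libraries, followed by Mmp14 (183), Timp2 (87.0), Adam10 (38.9), Timp1 (22.2), Adam17 (18.3), Mmp13 (16.7), Timp3 (7.94), Mmp2 (6.92) and Reck (0.23). Library ranges of neighbours in this order did not overlap, except for Timp1 with Adam17, Adam17 with Mmp13, and Timp3 with Mmp2. Timp1 was above Adam17 in both controls (29.7 and 31.1 against 18.2 and 15.5 CPM per kb) and below it in both knockouts (16.3 and 11.8 against 19.8 and 19.5 CPM per kb). This crossing depended on the length used. By coding length Timp1 was below Adam17 in control 1 too (42.9 against 51.3 CPM per kb) and close to it in control 2 (44.8 against 43.6). The place of Timp3 depended on the length used: it was the eighth by merged exons or longest transcript and the fourth by coding length, as its annotated exons add up to 8144 bases, its longest transcript to 4722 and its coding part to 633.

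**Figure D2:**
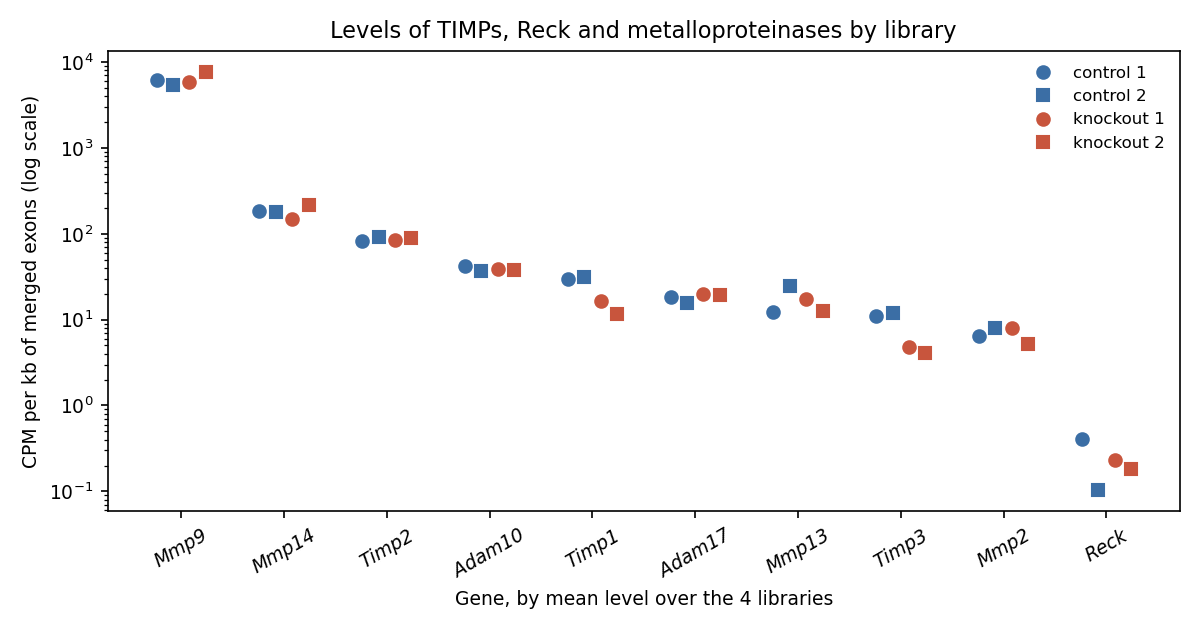
Level of each gene in each library in CPM per kb of merged exons, on a log axis, ordered by the mean over 4 libraries (colours for genotype, shapes for replicate). Mmp9 stands at 5452 to 7721 CPM per kb in all 4 libraries, and Timp1 and Timp3 are the genes whose red points drop clearly under the blue ones.

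The pool of TIMP transcripts was smaller in the knockouts and more of it was Timp2. The 3 TIMPs summed to 122 and 135 CPM per kb in the controls against 105 and 106 CPM per kb in the knockouts. Timp2 made up 66.8% and 68.1% of that sum in the controls against 80.0% and 85.1% in the knockouts. Timp1 made up 24.3% and 23.0% against 15.5% and 11.1%, and Timp3 8.91% and 8.89% against 4.53% and 3.87%. The order of Timp1 and Timp3 depended on the length used. By coding length Timp1 made up 6.45% and 6.05% in the controls against 4.05% and 2.81% in the knockouts. Timp3 then made up 21.1% and 20.8% against 10.6% and 8.76%. None of the 3 shares overlapped between genotypes by either length. The shares are parts of one sum and depend on each other. The Timp2 level itself overlapped between genotypes (log2 difference 0.01), so its larger share follows from lower Timp1 and Timp3.

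The summed MMP to TIMP ratio (Mmp2, Mmp9, Mmp13 and Mmp14 over Timp1, Timp2 and Timp3, per kb) was 52.1 and 42.0 in the controls against 57.8 and 74.9 in the knockouts. That is 47.1 ± 7.20 against 66.4 ± 12.1 (SD, n = 2 each), or 1.41-fold between geometric means. Mmp9 supplied 96.3% to 97.1% of the numerator in every library. Without Mmp9 the ratio was 1.67 and 1.56 in the controls against 1.67 and 2.22 in the knockouts, so that control 1 and knockout 1 were nearly equal. On coding length or with no division by length, the groups of that second ratio overlapped. Knockout 2 weighed on both: without it the log2 differences of the first and second ratio were 0.31 and 0.05, against 0.49 and 0.26 with all libraries.

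Ratios of single pairs with a known inhibitory contact restate the levels given above. For Adam17 to Timp3 the per-kb ratio was 1.67 and 1.29 in the controls against 4.16 and 4.76 in the knockouts, 3.03-fold higher. For Adam10 to Timp3 it was 3.82 and 3.03 against 8.25 and 9.31, 2.57-fold higher. With Adam10 set against Timp1, the values were 1.40 and 1.17 in the controls against 2.41 and 3.25 in the knockouts. In these pairs Adam10 was nearly level between genotypes and Adam17 slightly higher in the knockouts, and the inhibitor was lower.

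The ratio of Mmp9 to Timp1 was 208 and 176 in the controls against 363 and 657 in the knockouts, the widest spread within a genotype among these pairs. Mmp14 to Timp3 was 16.98 and 14.8 against 31.5 and 53.1. Mmp14 to Timp2, the pair at the centre of pro-MMP2 activation, overlapped at 2.27 and 1.94 against 1.79 and 2.41. The protease to inhibitor ratio was higher in both knockouts where Timp1 or Timp3 was the denominator, and not where Timp2 was. These ratios add no separate evidence. Timp1 and Timp3 were lower, the low Timp3 level was known beforehand, and Mmp9, Mmp14, Adam10 and Timp2 each overlapped between genotypes. A ratio of transcripts within a library says nothing of which of its parts moved, or of protein or enzyme activity. Knockout values shared by several ratios make them dependent on each other.

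**Figure D3:**
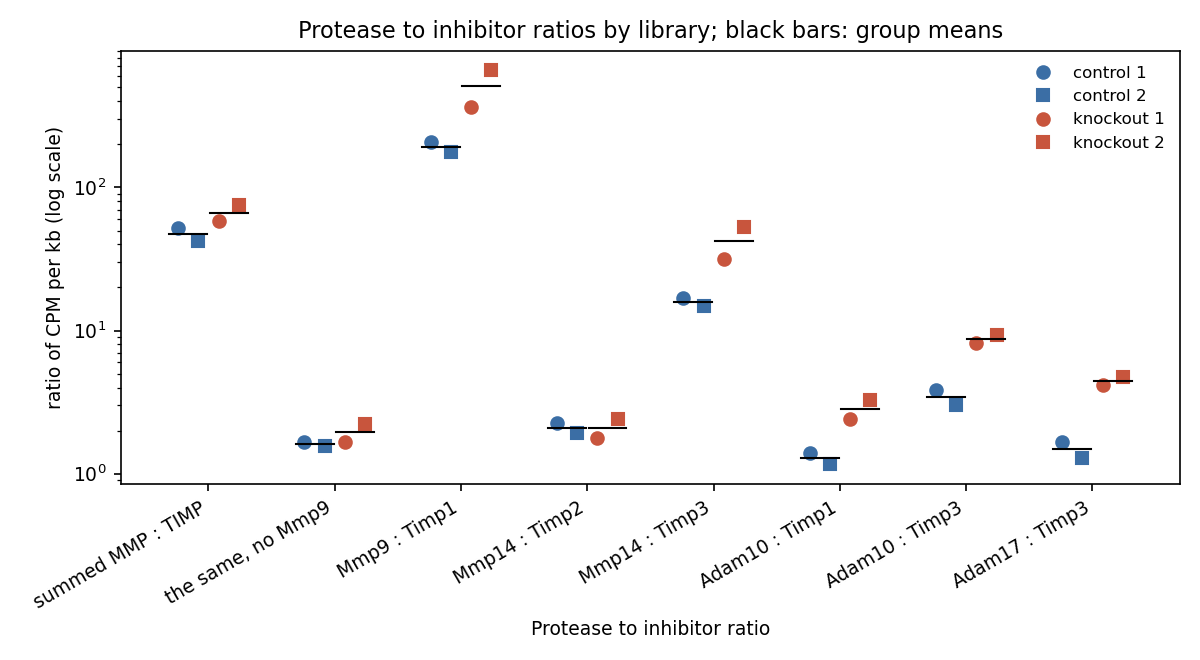
Protease to inhibitor ratios of CPM per kb in each library on a log axis, with black bars at group means. Ratios over Timp1 or Timp3 lie higher in both knockouts, as with Adam17 to Timp3 (1.67 and 1.29 against 4.16 and 4.76), and Mmp14 to Timp2 overlaps.

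The stromal marker sum, like Timp1 and Timp3, was lower in both knockouts. Their sum was 2950.1 ± 422 CPM in the controls against 1871 ± 186 CPM in the knockouts (SD, n = 2 each), with 13 of 22 tested markers below both controls in both knockouts (15.4% of all tested genes), 1 called by limma (the fibrillin gene Fbn1, adjusted p = 0.036) and a median log2 difference of −0.50. At an unadjusted p under 0.05, 11 of the 22 were lower, against 3.55% of all tested genes. DESeq2 called 10 as lower, against 55 of all 11781 tested genes. Low in the knockouts were the collagen genes Col1a1, at 561 and 758 against 386 and 365 CPM, and Col3a1, at 215 and 289 against 148 and 104 CPM. The list did not move as a whole: the other 9 markers overlapped between genotypes, among them Pdgfra, Dcn, Lum, Fap, Col6a1 and Col6a2, and the log2 differences of Lepr, Alpl and Cxcl12 were 0.14, 0.05 and 0.04. Per 1000 CPM of summed stromal markers, Timp3 was at 33.4 and 30.1 in the controls against 19.4 and 19.2 in the knockouts. Timp1 was at 9.94 and 8.49 against 7.22 and 5.999. On that scale the knockout to control ratios of Timp3 and Timp1 were 0.61 and 0.72 between geometric means, with no overlap. The stromal sum leans on collagen genes, so it is not a measure of stromal cell number. In control 1, Col1a1 and Col1a2 were at 561 and 679 of 2652 CPM, against 6.10 CPM for Pdgfra and 4.42 CPM for Dcn. Mmp2, on the same scale, was at 8.30 and 8.23 against 13.6 and 9.97. The stromal sum itself had a ratio of 0.64 between geometric means. The members other than Timp1 and Timp3 had ratios on that scale from 1.33 (Mmp13) to 1.84 (Adam17). The part of stromal cells in the Timp1 and Timp3 differences was not tested.

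Timp1, Timp2, Timp3, Adam17 and Reck overlap with or lie within other genes, and the strand setting used in counting is not stated in these sources. Timp2, Reck and Adam17 overlap Cep295nl, Gm27265 and Gm22766 in turn, which share 0 exon bases with them and were not in the table. Timp1 (ENSMUSG00000001131.11, chrX:20870166-20874735, plus strand) sits inside the opposite-strand synapsin gene Syn1 and shares 0 exon bases with it. Syn1 was at 11.6, 10.6, 8.38 and 12.9 CPM in control 1, control 2, knockout 1 and knockout 2, an order unlike that of Timp1. Timp3 (ENSMUSG00000020044.13, chr10:86300372-86349506, plus strand) lies within Syn3 on the other strand and shares 1733 exon bases with it, and Syn3 reached at most 0.84 CPM. Adam17 (ENSMUSG00000052593.16, chr12:21323509-21373632, minus strand) shares 311 exon bases with Iah1, which was at 9.83 to 12.7 CPM. Some reads of the bases that Timp3 and Adam17 share with these genes may be misassigned or left uncounted.

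The sequences before the start sites of Timp1 and Timp3 are shown because both genes were lower together. They come from RefSeq promoters (GRCm38.p6), which held an entry for 8 of the 10 members, and end where the GENCODE gene begins. Capitals mark a match to GGAATG, a core motif of the TEAD factors, on either strand. The first is chrX:20869916-20870165, plus strand, and the second is chr10:86300162-86300371, plus strand.
Timp1: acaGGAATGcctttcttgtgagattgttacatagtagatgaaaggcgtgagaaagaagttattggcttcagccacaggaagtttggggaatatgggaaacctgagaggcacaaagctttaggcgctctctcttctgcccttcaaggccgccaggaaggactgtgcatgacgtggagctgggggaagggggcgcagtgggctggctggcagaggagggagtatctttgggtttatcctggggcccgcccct
Timp3: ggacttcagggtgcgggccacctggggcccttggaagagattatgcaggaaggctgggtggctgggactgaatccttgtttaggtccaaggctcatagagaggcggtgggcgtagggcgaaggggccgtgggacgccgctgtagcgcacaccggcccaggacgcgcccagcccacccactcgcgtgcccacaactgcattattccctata

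In the 300-base RefSeq windows, GGAATG was found in those of Timp1 and Reck among the 8, and 14.7% of 32851 mouse promoters held it. The AP-1 motif TGANTCA was found in that of Mmp13 alone among the 8, and 7.81% of promoters held it. The motifs were picked after the values were known, and a match is not a binding site.

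The wider family gave 95 further genes of the pathway from lists drawn up with earlier results in view, of which 64 were in the table and 58 were tested. limma called 0 as higher and 1 as lower, the latter in the list of proprotein convertases and the plasminogen system, against 0.161% of all genes in either direction. Of the 58 genes, 12 had both knockouts below both controls and 6 had both above, against 15.4% and 16.5% of all tested genes. At an unadjusted p under 0.05, 9 were lower, against 3.55% of all tested genes, and 0 were higher, against 159 of 11781. Their median log2 difference was −0.05. DESeq2 and edgeR each called 1 as lower, against 55 and 14 of all 11781 tested genes. In the 5 lists below without a limma call, the unadjusted p was under 0.05 for 1 MMP, 1 ADAM, 4 ADAMTS genes, 0 partners and 1 substrate, all lower, and DESeq2 and edgeR called 0.

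Among 6 other tested MMPs, 0 were called. Mmp12, the macrophage elastase, was higher in both libraries numbered 1, at 561 and 233 CPM in the controls against 560 and 202 CPM in the knockouts (named after its values were seen). Mmp23 was at 4.48 and 3.92 CPM in the controls against 2.51 and 2.99 CPM in the knockouts (limma adjusted p = 0.987), Mmp11 at 0.80 ± 0.15 and 1.34 ± 0.41 CPM, Mmp16 at 1.07 ± 0.42 and 0.90 ± 0.50 CPM, and Mmp19 at 16.5 ± 0.94 and 15.5 ± 0.92 CPM (SD, n = 2 each, as for all following means). The list contained 11 genes outside the table, among them the stromelysins Mmp3 and Mmp10.

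Among 7 other tested ADAMs, 0 were called. Both knockouts were below both controls for 2 of them and above for 1, against 15.4% and 16.5% of all tested genes. The 2 below were Adam19, at 12.3 ± 0.94 CPM in controls against 7.36 ± 0.33 CPM in knockouts (log2 difference −0.70, SE 0.16, limma adjusted p = 0.326), and Adam12, a meltrin of fusing muscle and mesenchymal cells, at 3.03 ± 0.07 and 2.00 ± 0.40 CPM. Adam15 was at 32.1 ± 2.16 and 28.5 ± 4.02 CPM and Adam23 at 2.75 ± 0.86 and 3.63 ± 0.75 CPM, with overlap.

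Of the ADAMTS proteases, secreted enzymes that process procollagens and proteoglycans, 10 were tested and 0 called, with 5 below the controls in both knockouts, 0 above and a median of −0.21, where 15.4% of all tested genes were below and 16.5% above. Adamts2, the procollagen N-proteinase, was at 27.6 and 29.7 CPM in the controls against 18.6 and 16.7 CPM in the knockouts (log2 difference −0.69, SE 0.13, limma adjusted p = 0.181). Adamts12 was at 6.16 ± 0.29 and 3.90 ± 0.56 CPM, Adamts10 at 10.5 ± 0.65 and 7.42 ± 0.89 CPM, and the versican-cleaving Adamts1 at 6.93 ± 2.18 and 4.06 ± 0.71 CPM (limma adjusted p = 0.809, 0.931 and 0.946). The stromal marker sum was lower in both knockouts as well, although that list did not move as a whole.

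The partners that carry ADAM10 and ADAM17 to the cell surface, tetraspanins and iRhoms, showed 0 calls in 7 tested genes and a median of 0.07. Both knockouts were below both controls for 0 of them and above for 1, Tspan5, against 15.4% and 16.5% of all tested genes. Tspan5, a tetraspanin partner of ADAM10, was at 38.0 ± 0.61 CPM in controls against 44.4 ± 2.78 CPM in knockouts. Tspan14 was at 88.6 ± 10.9 and 94.3 ± 1.34 CPM, Tspan17 at 13.5 ± 0.81 and 14.3 ± 2.89 CPM, and the iRhom gene Rhbdf1 at 11.5 ± 0.52 and 10.7 ± 0.90 CPM. For all 4 the limma adjusted p was 0.9997.

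Convertases and plasmin activate many pro-MMPs. The list of convertases and the plasminogen system also holds protease inhibitors, Serpinb2 and Serpine2 among them. Of its 9 tested genes, 8 had a negative log2 difference, against 5836 of all 11781 tested genes. The median was −0.23. Serpinb2, the plasminogen activator inhibitor of macrophages, was at 7.53 and 8.33 CPM in the controls against 4.16 and 2.88 CPM in the knockouts (log2 difference −1.09, SE 0.22, limma adjusted p = 0.251). The urokinase gene Plau was at 43.2 and 53.3 against 50.9 and 26.6 CPM, with knockout 2 apart from the other 3 libraries: its log2 difference was −0.38 in all 4 libraries, −0.84 without knockout 1 and 0.09 without knockout 2. Plat, the tissue-type activator, was at 3.85 ± 0.49 and 2.69 ± 1.42 CPM, and the protease inhibitor Serpine2 at 28.8 ± 4.38 and 24.4 ± 2.20 CPM.

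Among 19 tested substrates that ADAM10 or ADAM17 shed, 0 were called and the median was 0.03. Csf1, whose membrane-bound form is released by ADAM17, was at 46.4 and 45.3 CPM in the controls against 32.3 and 28.7 CPM in the knockouts (log2 difference −0.58, SE 0.11, limma adjusted p = 0.196). Tnfrsf11a, the receptor for RANKL, was at 349.8 ± 30.5 and 393 ± 20.0 CPM. Mertk, a receptor for the uptake of dying cells, was at 7.47 and 2.87 CPM in the controls against 7.99 and 7.28 CPM in the knockouts. Control 2 stood apart: the log2 difference of Mertk was 0.65 in all 4 libraries, 0.03 without control 2 and 1.27 without control 1. The chemokine gene Cx3cl1 was at 2.77 ± 1.04 and 1.84 ± 0.09 CPM.

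**Figure D4:**
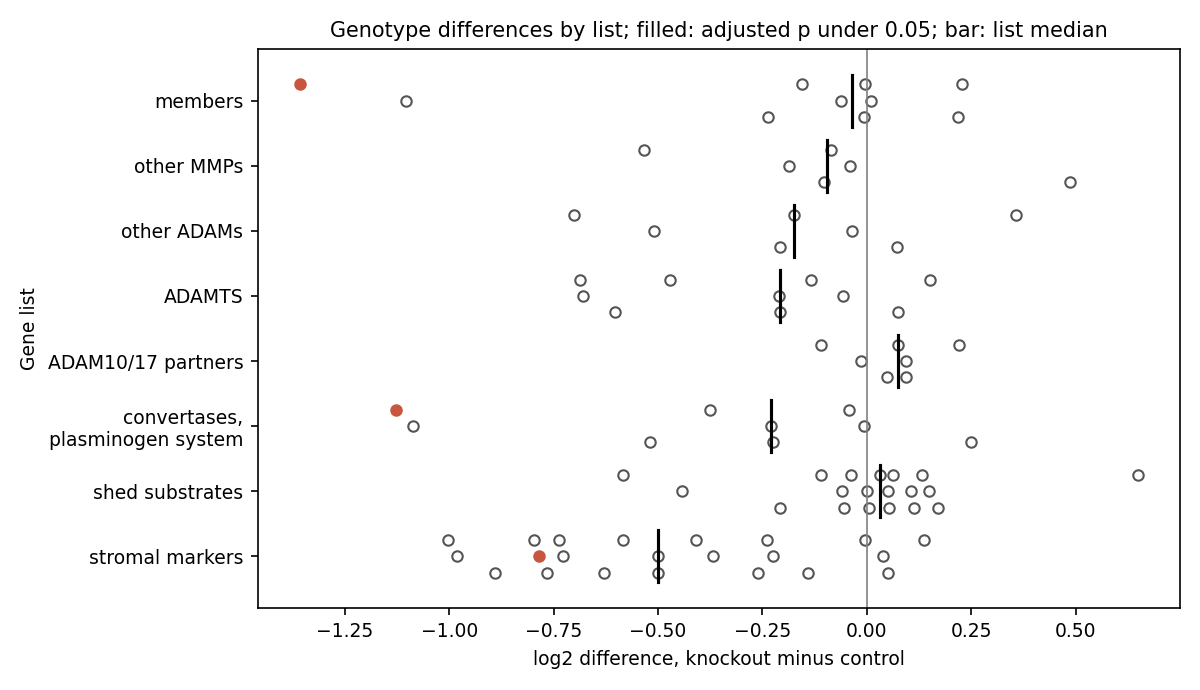
Each circle is a gene's log2 difference, knockout minus control, in one list; filled circles passed an adjusted p under 0.05 in limma, black bars are list medians and the grey line is the median of all genes. The ADAMTS and stromal lists have medians of −0.21 and −0.50, and the members split into Timp1 and Timp3 at the far left and 8 genes near 0.

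Among the 5 genes nearest to Timp3, by Euclidean distance between log2 values centred on their own mean over the 4 libraries, were Ccdc28b (15.7, 18.1, 6.80 and 6.09 CPM in the order above), Pappa (19.2, 21.4, 7.19 and 7.23 CPM), Col8a1 (33.7, 34.8, 16.6 and 15.3 CPM) and Timp1. Pappa encodes a metalloproteinase that cuts the binding proteins of insulin-like growth factors, and Col8a1 a short-chain collagen. The comparison covered genes with a mean of 5 CPM or more, and with 4 libraries it describes little beyond the genotype difference.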

How the data were processed

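Poly(A) RNA libraries of 2 control and 2 knockout cultures were analysed, which carry 1 shared batch value per the labels. The authors deposited a normalised signal per gene and library. Tools listed without versions in the submitters' processing notes are edgeR, STAR and Subread's featureCounts, and the build is mm10 (GRCm38). In the deposited signal 100% of values were whole multiples of a column's smallest value within 0.001 reads, and edgeR CPM with TMM scaling of the recovered reads matched it, so it is called CPM. Recovered totals were 15320308 and 14122118 (controls) and 14997205 and 18897927 (knockouts), 1 read being worth 0.054 to 0.070 CPM.

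limma with an intensity trend was fitted to log2(CPM + 0.5) of the 11781 genes that reached 1 CPM in 2 or more libraries, genotype being the sole term, 2-sided, Benjamini-Hochberg adjusted over all of them. Exact permutation of 2 against 2 libraries cannot go below p = 0.333. Members and lists were chosen with earlier results of these data known. Named were the members, Piezo1, genes overlapping members, the 5 genes nearest to Timp3, and of each pathway list the called genes and up to 4 others with the smallest p. Of the genes this rule takes, 2 are not reported here, though counts include them. Lengths came from GENCODE M21, which may differ from the authors' annotation. The fit was tested on simulated data. Alternatives changed the pseudocount, the low-value filter, the scaling or the variance model, added a replicate block, left out each library, or tested the recovered reads with edgeR (19 genes called) and DESeq2 (63 called). Software was Python 3.11.15 with SciPy 1.17.1, pandas 2.3.3 and matplotlib 3.10.9, and DESeq2 1.42.0, edgeR 4.0.16 and limma 3.58.1 under R 4.3.3.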

Additional observations from a re-analysis of the deposited data

How the results depend on the processing

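With 2 libraries per genotype the calls were unstable. limma called 19 genes, 1 member and 1 other pathway gene. Without an intensity trend these became 4, 0 and 0, and with DESeq2 63, 2 and 1, the members being Timp1 and Timp3. Leaving out 1 library gave 6 to 93 genes, 0 to 2 members and 0 to 5 other pathway genes. Timp3 was called neither without control 1 nor without control 2. With the replicate number as a block the counts were 89, 2 (Timp1 and Timp3) and 3. Same-numbered libraries did not deviate together (r = −0.002 across genes), so they were not treated as pairs, although single genes such as Mmp12 were alike in same-numbered libraries. Piezo1 kept its direction and its call in each fit, with a log2 difference of −2.87 to −2.71 when 1 library was left out.

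The log2 differences of the 4 summed ratios recomputed here moved by less than 1 SD with other lengths and were positive at each length. With 1 library left out it was 0.31 to 0.68 for the summed MMP to TIMP ratio, 0.05 to 0.46 without Mmp9, 1.27 to 1.61 for ADAM to Timp3, and 1.08 to 1.45 for ADAM to Timp1 and Timp3.

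Of genes not called, some differences changed sign, and not only those near 0. Plau (−0.38 in the main fit) and Mmp13 (−0.24) did so when 1 library was left out. With libraries rescaled to equal totals Timp2 was at −0.015, and Mmp14 was at 0.021 with edgeR and 0.017 with DESeq2. With 1 library left out the log2 difference ran from −0.076 to 0.095 for Timp2, −0.27 to 0.27 for Mmp14, −0.47 to 0.16 for Mmp2, −0.74 to 0.27 for Mmp13, −0.10 to 0.091 for Adam10 and −0.72 to 0.059 for Reck. Among other genes it ran from −0.031 to 0.22 for Tspan14, −0.12 to 0.27 for Tspan17, −0.46 to 0.19 for Mmp16 and −0.84 to 0.086 for Plau. The cause of these changes was not tested.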
